A study of Caenorhabditis elegans with 12 samples.

Results

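The aat genes of *C. elegans* encode proteins related to the light chains of amino acid transporters of the plasma membrane. They were taken by symbol, and 3 of the 9 genes named *aat-1* to *aat-9*, namely *aat-1*, *aat-4* and *aat-5*, are among the 5272 genes of the tables used here. The remaining aat genes were not analysed here. RNAseq was performed on pools of whole nematodes at age day 6 in 12 samples, 4 in each group. Unexposed WT were of strain Bristol N2, FW1256-exposed WT were N2 given 500 µM FW1256, a slow-releasing H2S donor, from larval stage L1 onwards, and unexposed *eat-2* mutants were of strain DA1116. *Eat-2* mutants pump food slowly with the pharynx and serve as a genetic model of CR. All groups were grown with *Escherichia coli* OP50-1 as food. The *eat-2* group comes from a single strain, and the pooled animals give no level per animal. The labels do not say whether the replicates came from separate cultures, so p-values measure only the spread between these samples.

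Animals cannot make all amino acids and take up the rest from food, so transporters set which amino acids cross the gut wall and reach other tissues. Members of the aat family are related to transporters in which a light chain carries the amino acids, usually by exchange. In these, a glycoprotein heavy chain brings the light chain to the cell surface. Whether AAT-4 and AAT-5 depend on a heavy chain was not tested here. In nematodes, the heavy chains are the products of *atgp-1* and *atgp-2*. When expressed in frog oocytes, AAT-1 works as such an exchanger together with a heavy chain. Inside the cell, amino acids are sensed by the kinase complex TORC1 and, when scarce, by the kinase GCN-2.

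In the WBcel235 annotation (Ensembl release 115), *aat-1* (WBGene00000002) lies on chromosome IV from 9599178 to 9601695, on the minus strand. It has a single coding transcript with 8 exons and 1739 nucleotides. The gene *aat-4* (WBGene00000005) lies on the minus strand of the same chromosome, from 6272529 to 6275721, with a coding transcript of 1804 nucleotides and a noncoding one of 1598 nucleotides. The gene *aat-5* (WBGene00000006) lies on the minus strand of chromosome I from 2571740 to 2576020, with 1 coding transcript of 1876 nucleotides and 3 noncoding ones of 1606 to 1671 nucleotides. No other coding gene overlaps any of these genes, while short piRNA loci lie within *aat-1* and *aat-4*.

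How much of each gene the values of single libraries hold was checked against the means that the authors gave. The authors deposited 1 table per comparison with WT, each giving a mean of normalized counts, and in that of *eat-2* mutants this was 340 for *aat-1*, 299 for *aat-4* and 500.4 for *aat-5*. The mean over the WT and *eat-2* libraries used here was 360 normalized counts for *aat-1*, or 106% of the authors' mean. For *aat-4* it was 19.1 (6.40%), and for *aat-5* 126 (25.1%). Across the tables, this share had a median of 98.2% over 2674 genes with coding transcripts alone and 20.7% over 422 genes with a noncoding transcript beside a coding one, as *aat-4* and *aat-5* have. In the authors' table for FW1256, which shares the WT samples, the mean was 342 for *aat-1*, 27.6 for *aat-4* and 152 for *aat-5*, and the libraries used here gave 87.5%, 90.7% and 51.4% of it. In that table the median share was 101% over 2583 genes with coding transcripts alone and 94.9% over 255 with a noncoding transcript beside a coding one. Thus the authors' 2 tables did not count *aat-4* and *aat-5* alike, and the libraries used here were closer to the one for FW1256. Which transcripts entered the value of a gene is not stated. The noncoding transcript of *aat-4* shares 1581 of its 1598 nucleotides with the coding one, and those of *aat-5* share 96.6% to 100% of theirs. Values of *aat-4* and *aat-5* below are therefore those of the counted part, also where only the gene is named. The transcript that this part comes from was not tested. For *aat-1*, neither share was far from the whole. It was below the median in the FW1256 table (87.5% against 101%) and above it in the *eat-2* table (106% against 98.2%). The authors' means of *aat-1* in these tables were nearly equal (342 and 340), whereas the libraries used here gave 299 and 360. The lower level of *aat-1* with FW1256 reported below is thus not visible in the authors' means. The reason for this difference was not tested.

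The libraries held between 14769332 and 19199981 estimated counts over the genes of the tables, which is not the full depth. Levels are CPM scaled by TMM over these genes only, so they exceed CPM over all genes. Each pair of replicates of a group differed by more than the sampling noise (chi-square per gene between 11.6 and 48.1), and each library was counted as 1 sample. Differentially expressed genes (DEGs) were those with an adjusted p under 0.05 in edgeR's quasi-likelihood test, by the method of Benjamini and Hochberg over all genes tested.

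In the libraries used here, *aat-1* had more counts than the counted parts of *aat-4* and *aat-5*. This is no ranking of the whole genes, since the authors' mean for *eat-2* mutants and WT was higher for *aat-5* (500.4) than for *aat-1* (340). In unexposed WT, the mean level of *aat-1* was higher than that of 52.1% of the 4881 genes with a count, compared with 41.4% for *aat-5* and 24.2% for *aat-4*. Per kilobase of transcript, unexposed WT expressed *aat-1* at 12.0 CPM, the counted part of *aat-5* at 3.17 to 3.70 CPM and that of *aat-4* at 0.318 to 0.359 CPM, depending on which annotated transcript sets the length. In FW1256-exposed WT these levels per kilobase were 8.52 for *aat-1*, 1.80 to 2.10 for *aat-5* and 1.34 to 1.51 for *aat-4*. In *eat-2* mutants they were 11.9, 4.58 to 5.35 and 0.913 to 1.03, in the same order of genes. By group means, the order of *aat-1* and the counted parts of the others was thus the same in each group. The gap between *aat-5* and *aat-4* was smallest in FW1256-exposed WT. There the order did not hold in every library, as replicate 2 had 3.66 CPM for *aat-4* and 3.31 CPM for *aat-5*.

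**Figure D1:**
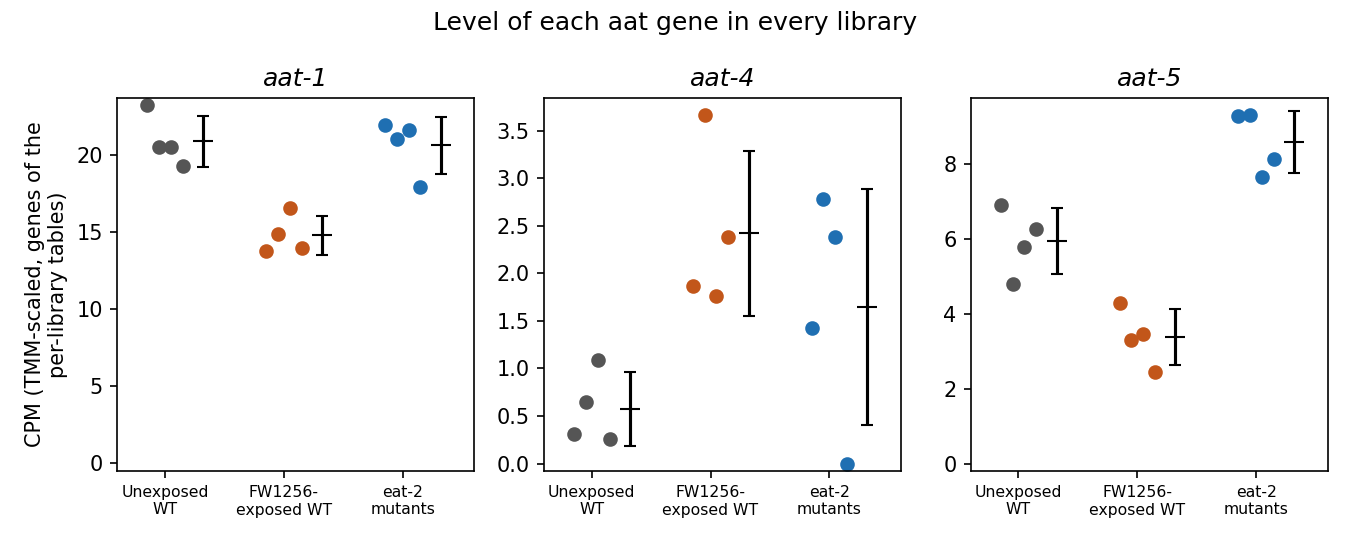
TMM-scaled CPM of *aat-1*, *aat-4* and *aat-5* (vertical axes, a separate scale for each gene) in 4 libraries of each group, with 1 point per library and the mean and SD beside them in black. FW1256-exposed WT lie below both other groups for *aat-1* and *aat-5* and above unexposed WT for *aat-4*, where 1 *eat-2* library is at 0. Values of *aat-4* and *aat-5* are those of the counted part.

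The comparison of FW1256-exposed with unexposed WT asked whether expression changes under an H2S donor. No group received the compound without its H2S, so effects of H2S and of the compound itself cannot be told apart. The authors report that FW1256 exposure and *eat-2* mutation each delayed development and egg laying. Groups of the same age may therefore differ in stage, and the part of stage in these levels was not tested. All 3 aat members were DEGs in this comparison, in different directions. The gene *aat-1* and the counted part of *aat-5* fell, and the counted part of *aat-4* rose. Over all genes tested, 50.2% of 3616 were DEGs (25.5% higher and 24.8% lower with FW1256), so a call in itself does not set the family apart. In RNA of whole nematodes, fewer cells of a type and less RNA per cell cannot be told apart.

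The exchanger gene *aat-1* was expressed in unexposed WT at 23.2, 20.6, 20.6 and 19.3 CPM in replicates 1 to 4. In FW1256-exposed WT, the levels were 13.8, 14.9, 16.6 and 14.0 CPM. Each exposed library was below each unexposed one. The means were 20.9 ± 1.66 CPM in unexposed WT (SD, n = 4) and 14.8 ± 1.26 CPM in FW1256-exposed WT (SD, n = 4), or 0.708 times the WT level. The log2 fold change was -0.51 (standard error 0.10, 95% interval -0.74 to -0.28, adjusted p = 0.00236, edgeR).

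For the counted part of *aat-5*, unexposed WT had 6.91, 4.80, 5.78 and 6.27 CPM. FW1256-exposed WT had 4.29, 3.31, 3.46 and 2.45 CPM. Again the exposed libraries were all below the unexposed ones, with the smallest distance between exposed replicate 1 and unexposed replicate 2. The mean went from 5.94 ± 0.890 CPM (SD, n = 4) to 3.38 ± 0.754 CPM (SD, n = 4), a log2 fold change of -0.82 (standard error 0.21, 95% interval -1.31 to -0.34, adjusted p = 0.00987, edgeR). These values rest on 88.8 to 135 estimated counts per library in unexposed WT and 37.7 to 78.1 with FW1256.

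The counted part of *aat-4* was at 0.307, 0.647, 1.09 and 0.253 CPM in unexposed WT. It was at 1.87, 3.66, 1.76 and 2.38 CPM in FW1256-exposed WT. Each exposed library was above each unexposed one, although the values spread widely within both groups. From 0.574 ± 0.385 CPM (SD, n = 4), the mean rose to 2.42 ± 0.870 CPM (SD, n = 4), or 4.22-fold. The log2 fold change was 2.05 (standard error 0.46, 95% interval 1.01 to 3.09, adjusted p = 0.00482, edgeR). It was the largest change of the 3 members and the one with the fewest reads, 3.88 to 18.7 estimated counts per unexposed library.

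The comparison of *eat-2* mutants with unexposed WT asked what the mutation that models CR does. Here only the counted part of *aat-5* was a DEG, and it rose. Among all genes, 44.2% of 3786 tested were DEGs, 21.8% being higher and 22.4% lower in the mutants.

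In *eat-2* mutants, the counted part of *aat-5* was at 9.27, 9.29, 7.66 and 8.13 CPM, each above the highest unexposed WT library. The mean of 8.59 ± 0.825 CPM (SD, n = 4) was 1.45 times that of WT. The log2 fold change was 0.53 (standard error 0.15, 95% interval 0.19 to 0.88, adjusted p = 0.0196, edgeR). Leaving out *eat-2* replicate 2 ended this call, as the log2 fold change was then 0.48 and the adjusted p 0.0565 (edgeR).

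In the same mutants, *aat-1* was at 21.98, 21.1, 21.7 and 17.9 CPM, with replicates 1 to 3 within the range of unexposed WT and replicate 4 below it. With means of 20.7 ± 1.86 and 20.9 ± 1.66 CPM (SD, n = 4 each), the log2 fold change was -0.018 (95% interval -0.25 to 0.21, adjusted p = 0.901, edgeR). This interval leaves out a fall as large as that with FW1256 (-0.51).

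The counted part of *aat-4* was at 1.43, 2.78 and 2.38 CPM in *eat-2* replicates 1 to 3 and at 0 in replicate 4. The 3 former libraries were above each unexposed WT library, and the last was below each. A count of 0 there allows up to 3 counts, or 0.174 CPM, by counting error if reads were counted directly. This bound leaves out error from assigning reads to transcripts. The mean of the group was 1.65 ± 1.237 CPM (SD, n = 4), and 2.196 ± 0.697 CPM (SD, n = 3) without replicate 4. Over all libraries the difference from WT did not exceed the spread between replicates (log2 fold change 1.51, standard error 0.87, 95% interval -0.44 to 3.46, adjusted p = 0.184, edgeR). Without *eat-2* replicate 4, edgeR gave 1.92 on the log2 scale with an adjusted p of 0.0161, so that 1 library decided this call. The same library did not stand apart for *aat-5*, and it had the lowest level of *aat-1* in its group.

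**Figure D2:**
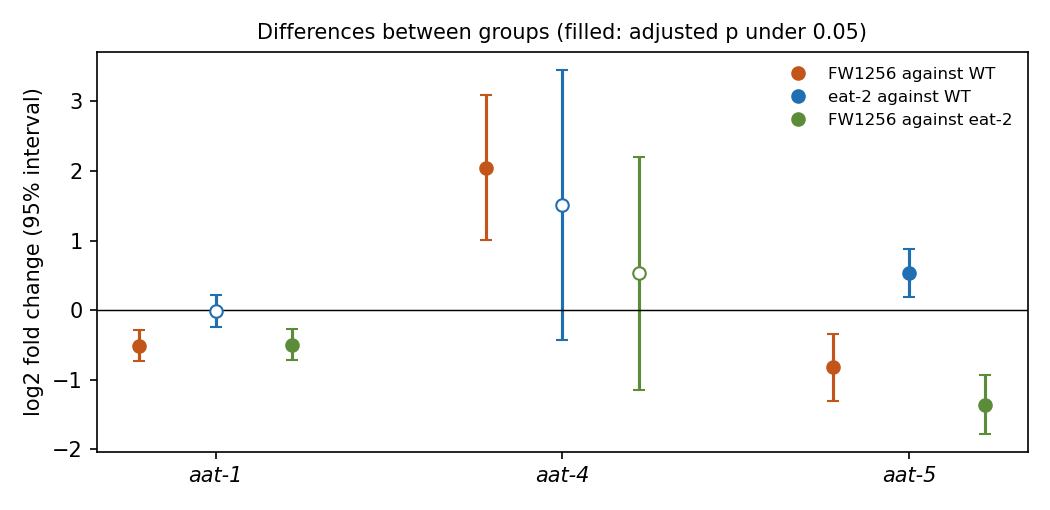
Log2 fold change (vertical axis) of each aat gene in 3 comparisons, with 95% intervals from edgeR. Filled points have an adjusted p under 0.05. For the counted part of *aat-5*, FW1256 (-0.82) and *eat-2* mutation (0.53) lie on opposite sides of 0, while the intervals of *aat-4* are the widest.

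Since both comparisons above share the unexposed WT libraries, FW1256-exposed WT were also compared with *eat-2* mutants directly. This tests whether exposure and mutation differ in their levels of each gene. Both *aat-1* and the counted part of *aat-5* were lower in FW1256-exposed WT, and that of *aat-4* did not pass the test. Over all genes, 69.3% of 3715 tested were DEGs, with 33.1% higher and 36% lower in FW1256-exposed WT.

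The level of the counted part of *aat-5* differed most. The *eat-2* libraries (7.66 to 9.29 CPM) and the FW1256-exposed libraries (2.45 to 4.29 CPM) did not overlap, and the latter had 0.393 times the mean of the former. The log2 fold change was -1.36 (standard error 0.19, 95% interval -1.78 to -0.94, adjusted p = 1.29e-04, edgeR). The order of the groups for this counted part was *eat-2* mutants, unexposed WT and FW1256-exposed WT, with both neighbouring pairs differing beyond their spread.

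For *aat-1*, FW1256-exposed WT (13.8 to 16.6 CPM) lay below *eat-2* mutants (17.9 to 21.98 CPM). The log2 fold change was -0.50 (standard error 0.10, 95% interval -0.72 to -0.27, adjusted p = 0.00165, edgeR). Unexposed WT and *eat-2* mutants came next to each other at the top and did not differ beyond their spread.

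The counted part of *aat-4* overlapped between FW1256-exposed WT and *eat-2* mutants. The log2 fold change was 0.53 (standard error 0.75, 95% interval -1.15 to 2.21, adjusted p = 0.549, edgeR). Without *eat-2* replicate 4 it was 0.11 (standard error 0.36). The interval with all libraries holds changes of over 2-fold in either direction.

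**Figure D3:**
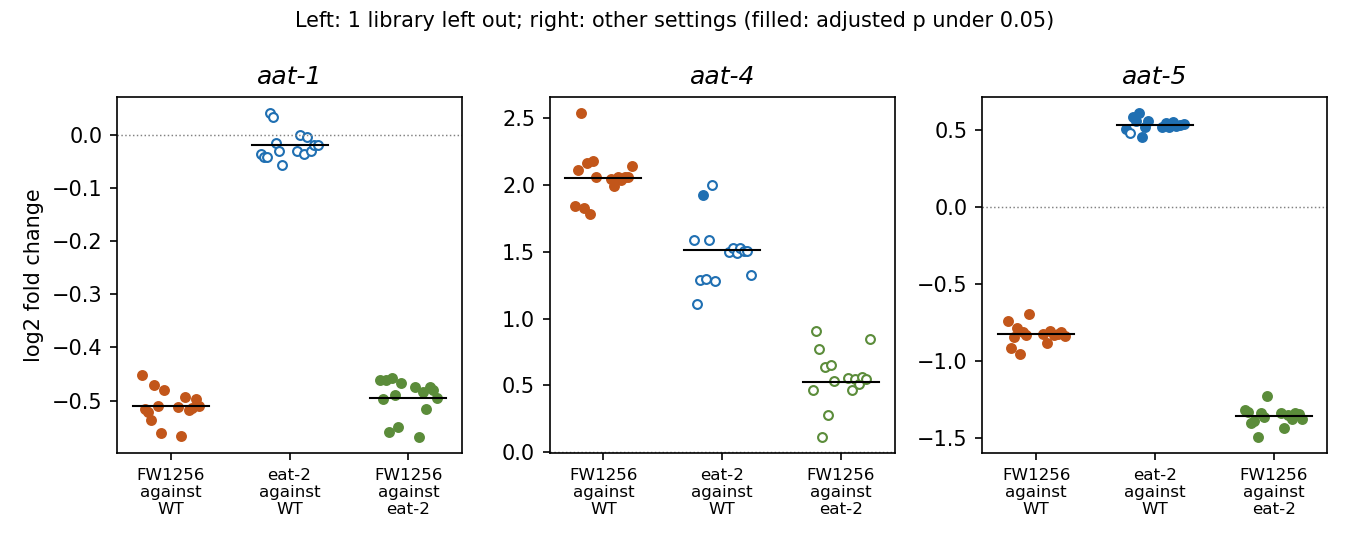
Log2 fold change of each aat gene (vertical axes, a separate scale for each gene) when 1 library was left out (left points of each column) or another setting was used (right points), with the reported value as a black line. Filled points have an adjusted p under 0.05. The values for *aat-1* and *aat-5* stay close to the line, and those of *aat-4* range from 1.78 to 2.54 with FW1256 when 1 library was left out.

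Within a library, the ratio between members does not depend on scaling. As a share of the *aat-1* counts, *aat-5* had a median of 28.9% in unexposed WT (range 23.3% to 32.5%). The share was 21.4% with FW1256 (17.4% to 31.04%) and 43.3% in *eat-2* mutants (35.4% to 45.4%). Thus *aat-5* stood higher against *aat-1* in each *eat-2* library than in any other library, whereas the ranges of unexposed and FW1256-exposed WT overlapped. For *aat-4*, this share was 2.32% in unexposed WT (1.27% to 5.21%), 15.3% with FW1256 (10.6% to 24.6%) and 8.68% in *eat-2* mutants (0% to 13.2%). The FW1256-exposed libraries did not overlap with unexposed WT here either.

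The spread between replicates differed between the members. For *aat-1*, the coefficient of variation within a group was 7.93% to 8.99%, where counting error alone gives 5.16% to 6.51%. For *aat-5* it was 14.97% in unexposed WT, 22.3% with FW1256 and 9.61% in *eat-2* mutants, where counting error gives 9.72%, 13.6% and 8.21%. For *aat-4* it was 67.0%, 36.0% and 75.1% in the same groups, where counting error gives 31.1%, 16.3% and 18.8%. Replicates of *aat-4* thus spread well beyond this counting error in each group, and *aat-1* was the most precise of the members. The counting error treats estimated counts as direct counts. It leaves out error from assigning reads to transcripts that share sequence, and the part of such error in the spread was not tested.

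Of the heavy chains, *atgp-2* is in the tables. It had 12.3 ± 1.10 CPM in unexposed WT (SD, n = 4), 8.95 ± 2.95 CPM with FW1256 (SD, n = 4) and 13.4 ± 1.119 CPM in *eat-2* mutants (SD, n = 4). Against WT, the log2 fold change was -0.47 with FW1256 (edgeR, adjusted p = 0.109) and 0.12 upon *eat-2* mutation (edgeR, adjusted p = 0.418), and neither passed the test. FW1256-exposed WT were lower than *eat-2* mutants (-0.59, adjusted p = 0.0333, edgeR), although the groups overlapped. Its values were 25.0% of the authors' mean for *eat-2* mutants, so they too are those of a counted part.

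Of 33 other transporters of amino acids and peptides, 5 are in the tables and 4 were tested. With FW1256, 1 fell and none rose, and in *eat-2* mutants 1 rose and 1 fell, where 50.2% and 44.2% of all genes were DEGs. The median log2 fold change was -0.07 with FW1256 and 0.14 in *eat-2* mutants, compared with medians over all genes of -0.0029 and 0.024. The gene that fell in both was *slc-36.5*, a member of the family of proton-coupled amino acid transporters. Its level was 11.1 ± 1.58 CPM without exposure in WT (SD, n = 4), 2.56 ± 0.650 CPM with FW1256 (SD, n = 4; log2 fold change -2.12, adjusted p = 4.8e-05, edgeR) and 4.48 ± 1.25 CPM after *eat-2* mutation (SD, n = 4; -1.31, adjusted p = 0.00127, edgeR). The gene *unc-47*, which encodes the vesicular GABA transporter, rose in *eat-2* mutants (0.95, adjusted p = 0.037, edgeR) from a low level of 0.778 ± 0.270 CPM (SD, n = 4). The peptide transporter gene *pept-2* (log2 fold change -0.17 with FW1256 and -0.021 in *eat-2* mutants) and *slc-36.2* (0.040 and 0.31) did not pass the test. By the same check against the *eat-2* table, the share of the authors' mean was 64.2% for *slc-36.5*, 69.0% for *unc-47* and 71.4% for *slc-36.2*.

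**Figure D4:**
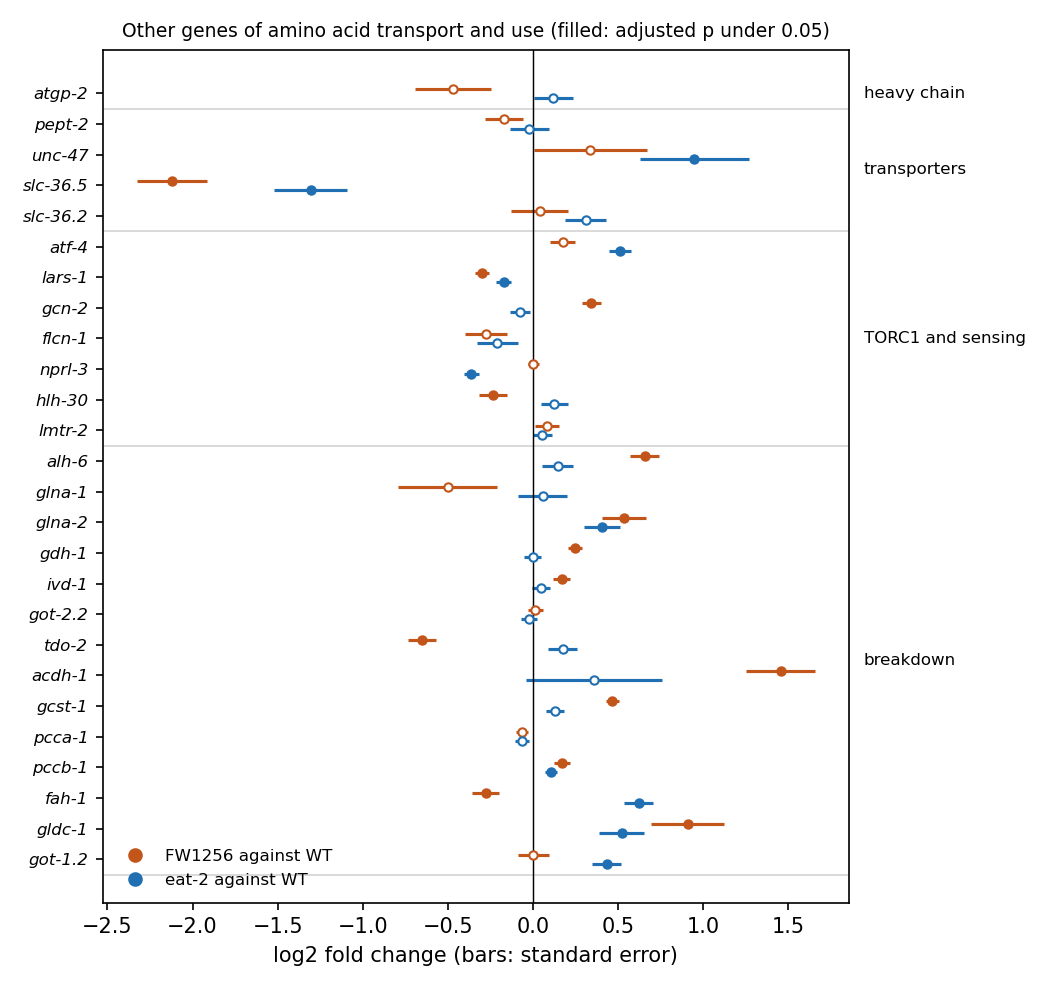
Log2 fold change (horizontal axis) of 1 heavy chain gene, 4 other transporter genes, 7 genes of TORC1 and amino acid sensing and 14 genes of amino acid breakdown (rows), with standard errors, for FW1256 against WT and *eat-2* against WT. Filled points have an adjusted p under 0.05. In the transporter rows, *slc-36.5* lies farthest to the left in both comparisons, and in the breakdown rows *acdh-1* lies farthest to the right with FW1256.

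Of 20 genes of TORC1 and amino acid sensing, 7 were tested. With FW1256, 1 rose and 2 fell, in *eat-2* mutants 1 rose and 2 fell, and the medians were 0.0030 and -0.076. These 3 of 7 in each comparison are close to the shares of all genes that were DEGs, 50.2% and 44.2%. The leucyl-tRNA synthetase gene *lars-1* fell in both, by 0.30 on the log2 scale with FW1256 (edgeR, adjusted p = 2.76e-04) and by 0.17 on the log2 scale upon *eat-2* mutation (edgeR, adjusted p = 0.00894). The gene *gcn-2*, whose kinase responds to uncharged tRNAs, rose by 0.34 with FW1256 on this scale (edgeR, adjusted p = 8.79e-04) but did not pass the test upon *eat-2* mutation (-0.076, edgeR, adjusted p = 0.31). It overlaps Y81G3A.4, and its reads may in part be those of that gene. In *eat-2* mutants, *atf-4* (overlapping WBGene00303075), the transcription factor downstream of GCN-2, rose from 131 ± 9.26 to 187 ± 10.8 CPM (SD, n = 4 each; log2 fold change 0.51, adjusted p = 4.35e-04, edgeR). With FW1256 its log2 fold change was 0.18 (adjusted p = 0.0706, edgeR). The gene *nprl-3*, encoding part of a complex that restrains TORC1, fell in *eat-2* mutants (-0.36, adjusted p = 4.42e-04, edgeR) while its log2 fold change with FW1256 was 0.0030 (adjusted p = 0.95, edgeR), and the difference between these groups was itself significant (0.36, adjusted p = 1.54e-05, edgeR). The gene *hlh-30*, for a transcription factor of autophagy and lysosomal genes, fell with FW1256 (-0.23, adjusted p = 0.0414, edgeR).

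Of 29 genes of amino acid breakdown, 14 were tested. With FW1256, 8 rose and 2 fell (median log2 fold change 0.17). In *eat-2* mutants 5 rose and 0 fell, with a median of 0.14. Of all genes, 25.5% rose and 24.8% fell with FW1256, and 21.8% rose and 22.4% fell upon *eat-2* mutation. Both components of the glycine cleavage system in this list rose with FW1256, *gcst-1* (overlapping K09H11.9) from 133 ± 4.42 to 185 ± 2.35 CPM (SD, n = 4 each; log2 fold change 0.47, adjusted p = 1.75e-05, edgeR) and *gldc-1* with a value of 0.91 (edgeR, adjusted p = 0.00597). For *gldc-1*, the exposed and unexposed libraries overlapped. It also rose upon *eat-2* mutation (0.52, edgeR, adjusted p = 0.00974). The tryptophan dioxygenase gene *tdo-2* fell from 65.1 ± 5.93 to 41.8 ± 2.51 CPM with FW1256 (SD, n = 4 each; log2 fold change -0.65, adjusted p = 1.97e-04, edgeR), while upon *eat-2* mutation it had 0.18 (edgeR, adjusted p = 0.12). The gene *fah-1*, for the last enzyme of tyrosine breakdown, fell with FW1256 (-0.28, adjusted p = 0.0174, edgeR) and rose in *eat-2* mutants (0.62, adjusted p = 6.34e-04, edgeR). Direct comparison of FW1256-exposed WT with *eat-2* mutants gave -0.83 for *tdo-2* (adjusted p = 8.52e-06, edgeR) and -0.90 for *fah-1* (adjusted p = 2.92e-07, edgeR). The largest rise of the list was that of *acdh-1* with FW1256 (1.46, adjusted p = 3.4e-04, edgeR), but its values were 2.08% of the authors' mean for *eat-2* mutants. The proline breakdown gene *alh-6* rose with FW1256 from 110 ± 12.4 to 174 ± 16.3 CPM (SD, n = 4 each; 0.66 on the log2 scale, edgeR, adjusted p = 2.7e-04). In *eat-2* mutants, the aspartate aminotransferase gene *got-1.2* rose from 92.3 ± 12.1 to 125 ± 4.66 CPM (SD, n = 4 each; 0.43, edgeR, adjusted p = 0.00364), and the glutaminase gene *glna-2* rose by 0.41 (edgeR, adjusted p = 0.0119). Between FW1256-exposed WT and *eat-2* mutants, 5 genes of breakdown were higher and 3 lower in the former, compared with 2 and 3 of sensing and 0 and 1 of the other transporters, the last being *slc-36.5* (-0.82, edgeR, adjusted p = 0.0194). Of all genes, 69.3% were DEGs in that comparison (33.1% higher and 36% lower), so these counts are near or below the background. The share of the authors' mean for *eat-2* mutants was 52.4% for *gldc-1*.

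Of 1782 genes with a symbol and a mean of at least 10 CPM, the 5 whose log2 CPM followed each member most closely over the 12 libraries were named. These correlations describe libraries that fall into 3 groups, so they mostly reflect the order of the groups. For *aat-1*, they were *dnc-2* (Pearson r 0.949), *txt-19* (0.944), *clec-83* (0.939), *amph-1* (0.939) and *gpa-17* (0.938). For *aat-5*, they were *klf-1* (0.979), *mob-2* (0.973), *cpna-5* (0.969), *efhd-1* (0.958) and *nhr-35* (0.954). The mean level of *klf-1*, for a zinc finger transcription factor, was 34.1 CPM in unexposed WT, 22.3 CPM with FW1256 and 44.1 CPM in *eat-2* mutants. The values for *aat-4* were lower, with *cnnm-1* (0.838), *fum-1* (0.833), *che-10* (0.827), *ifb-1* (0.826) and *acdh-1* (0.796). Among the members, *aat-1* and *aat-5* had an r of 0.802, whereas *aat-4* had -0.31 with *aat-1* and -0.38 with *aat-5*. When ranked by Spearman correlation instead, 1 of the 5 genes was kept for each member. Of the genes named here, *dnc-2*, *clec-83*, *amph-1*, *gpa-17*, *fum-1*, *ifb-1*, *klf-1* and *mob-2* overlap another coding gene or a pseudogene, so their counts are less certain. Shares of the authors' mean for *eat-2* mutants were low for *efhd-1* (11.4%), *ifb-1* (40.3%), *che-10* (45.5%) and *fum-1* (49.4%).

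The tissues in which the aat genes are expressed were not measured here. Markers of intestine (4 of 7 in the tables) summed to 2079 to 2537 CPM in unexposed WT, 2914 to 3277 CPM with FW1256 and 4686 to 5737 CPM in *eat-2* mutants. Markers of germline and oocytes (4 of 9) summed to 6187 to 7088, 7271 to 7531 and 4801 to 5270 CPM in the same groups. Markers of body wall muscle (3 of 4) summed to 851 to 967, 1777 to 1990 and 1177 to 1525 CPM, and the pharynx marker *myo-1* (1 of 4) had 49.5 to 71.6, 84.9 to 131 and 101 to 124 CPM. For neurons (2 of 8), the sums were 11.7 to 14.3, 8.73 to 13.9 and 15.2 to 21.4 CPM, and for hypodermis (2 of 5) 0.823 to 18.9, 2.90 to 8.23 and 3.50 to 27.8 CPM. Of 6 sperm markers, 0 are in the tables. Against unexposed WT, 4 of 4 intestine, 2 of 3 muscle, 1 of 1 pharynx and 2 of 4 germline markers tested rose with FW1256. Over all genes, 25.5% rose in this comparison. Of the members, *aat-1* and the counted part of *aat-5* fell there and that of *aat-4* rose. In *eat-2* mutants, where *aat-5* rose, 4 of 4 intestine, 3 of 3 muscle, 1 of 1 pharynx and 1 of 1 neuron markers tested rose and 4 of 4 germline markers fell, compared with 21.8% of all genes that rose and 22.4% that fell. The neuron marker tested, *unc-64*, was also lower in FW1256-exposed WT than in *eat-2* mutants (-0.63 on the log2 scale, edgeR, adjusted p = 0.00695). Its values were 22.55% of the authors' mean for *eat-2* mutants and it overlaps *set-25*, so its level is less certain. None of the 2 hypodermis markers passed the test in any comparison. The part of these tissues in the changes of the aat genes was not tested.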

How the data were processed

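The authors used kallisto 0.46.0 to map paired-end reads to the WBcel235 transcriptome, and tximport to bring transcripts to genes (length-scaled TPM). The deposited tables hold estimated counts per gene and library, not normalized between libraries, for 5272 genes, 3363 of them protein-coding and 1902 pseudogenes. The authors' tables of DESeq2 1.24.0 comparisons also hold log2 fold changes, standard errors and p-values, which were not used. From these deposited tables, the mean of normalized counts (a signal averaged by the authors over the libraries of a comparison) served to check how much of a gene was counted. The libraries that entered it are not given in the sources used here.

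Rounded estimated counts of each pair of groups entered a quasi-likelihood fit of their own in edgeR 4.0.16 under R 4.3.3 (TMM, filterByExpr, then glmQLFit and glmQLFTest), with Benjamini-Hochberg adjustment over all genes tested. The standard error is the log2 fold change divided by the square root of F. For correlations, 2 counts were added before taking log2 CPM. The scripts were first tested on simulated data. Alternatives were DESeq2 1.42.0, other scalings and filters, a joint fit of the groups, a block for the replicate number, and the fit without each library. The reported values use all 12 libraries. Members and gene lists were chosen with earlier results of these data known. From each list of transport, sensing and breakdown, the named genes were at most the 4 DEGs with the lowest p per comparison. The transporters *pept-2* and *slc-36.2* and the sensing gene *flcn-1*, DEGs in no comparison, were named after their values were seen. Symbols and positions come from Ensembl release 115 of WBcel235. No sequences are shown.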

Additional observations from a re-analysis of the deposited data

How the results depend on the processing

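Over the 3 comparisons and 3 members, 135 values were recomputed, and 130 kept their direction and their side of the threshold. The sign of *aat-1* in *eat-2* mutants, which was near 0 throughout, turned to 0.0013 with library size alone, 0.043 without *eat-2* replicate 4 and 0.034 without WT replicate 1 (range -0.056 to 0.043 with 1 library left out). In *eat-2* mutants, *aat-4* passed the test only without *eat-2* replicate 4 (range of the log2 fold change with 1 library left out 1.11 to 2.002, of the adjusted p 0.0161 to 0.376, edgeR), and *aat-5* did not pass it without *eat-2* replicate 2 (0.45 to 0.61, adjusted p 0.0162 to 0.0565, edgeR). With FW1256, *aat-1* ranged from -0.56 to -0.45, *aat-4* from 1.78 to 2.54 and *aat-5* from -0.96 to -0.69 with 1 library left out. The call of *aat-4* with FW1256 came close to the threshold in the joint fit of the groups. Its log2 fold change there was 2.06 (standard error 0.79, adjusted p = 0.0446, edgeR), where the reported fit had a standard error of 0.46 and an adjusted p of 0.00482. Deviations of same-numbered libraries from their group means had an r over 0.1 in 3 of 12 pairs (range -0.0399 to 0.238). Differently numbered libraries ranged from -0.222 to 0.185, so the highest value was that of a same-numbered pair. The labels do not name pairs, and the reported values do not take the numbers as pairs. With the replicate block, *aat-1* had -0.51, *aat-4* 2.14 and *aat-5* -0.84 with FW1256, the numbers of DEGs were 1767, 1821 and 2593 in place of 1817, 1674 and 2575, and no call of a member changed. Library size alone split the DEGs of FW1256 against WT into 691 higher and 1055 lower, in place of 922 and 895, and moved the median of all genes to -0.12 between FW1256-exposed WT and *eat-2* mutants. Depth limits *aat-4* most, with 0 to 53.0 estimated counts per library.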

Other observations

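The genes in the tables were not spread evenly over the annotation. Of 544 coding genes with a transcript whose identifier ends without a number of its own, such as the noncoding transcripts of *aat-4* and *aat-5*, 533 (98.0%) are in the tables, compared with 2830 of 19441 (14.6%) of those whose transcript identifiers all end in such a number. The values of *aat-4*, *aat-5*, *atgp-2*, *acdh-1*, *efhd-1*, the sensing gene *flcn-1* and the neuron marker *unc-64* were 2.08% to 25.1% of the authors' mean for *eat-2* mutants. For these genes, a count over all transcripts would be the measurement to repeat first.

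Within each group, the gap between the outermost library and its neighbour was compared with the range of the 4 libraries for each member. None of these 9 ratios passed the critical value of Dixon's test, and the largest was 0.771.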
